A study of Arabidopsis thaliana with 18 samples.

Results

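The 122 probesets described here fell with auxin in root protoplasts that carried an empty vector, and the results concern what the same probesets did in protoplasts that over-expressed IAA7mII or IAA19mII. They were chosen on the 6 empty vector arrays alone, from 22746 probesets in the series. A probeset entered when its mean log2(signal + 16) was lower by 0.8 or more with auxin than with mock, all 3 auxin arrays lay below all 3 mock arrays, and the mean mock signal was 100 or more. Of the 8914 probesets with that mock signal, 131 met these conditions, which is 1.47%. The 9 probesets of AT4G10270, AT3G10040, AT1G33055, AT4G24110, SFP1, OSM34, AT1G02360, AT3G46700 and GH3.17 were then left out, which gave the 122 members. Of these, 59 match 1 gene in the platform's annotation, 4 match several and 59 match none. The 59 stand for 58 genes, because AT5G54130 has 2 probesets among them.

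The groups were IAA7mII cells with IAA and with mock, IAA19mII cells with IAA and with mock, and empty vector cells with IAA and with mock, with 3 ATH1 arrays each. All came from Col-0 seedlings of the Pwer::GFP line, in which green fluorescent protein is made under the WEREWOLF promoter, active in root epidermis and lateral root cap. Roots of 7 day old seedlings were digested for 3 h, and the protoplasts were transformed with polyethylene glycol, left overnight, given 5 µM indole-3-acetic acid (IAA, the main natural auxin) or its solvent for 3 h, and sorted for both the green reporter and the red plasmid marker. The plasmids were pBeaconRFP_IAA7mII, pBeaconRFP_IAA19mII and pMON999_mRFP (the empty vector), so the transgene and the plasmid backbone cannot be told apart in any comparison with empty vector cells. All cells were transiently transformed, had lost their walls and had spent a night in culture. Nothing in the labels tells if the 3 arrays of a group came from independent cultures. The p-values therefore cover the spread among these arrays alone, and that spread may be technical.

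Auxin acts on transcription by bringing Aux/IAA proteins to the TIR1 and AFB receptors, which leads to their degradation and frees the ARF transcription factors they hold. IAA7 and IAA19 are Aux/IAA proteins, and domain II is the segment through which the family is recognised by the receptors. The labels do not define mII. Genes that auxin lowers are less well understood as a group than the early genes it raises, and many are thought to be reached through intermediate factors.

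The arrays as deposited had trimmed means of 246 to 248, while the 75th percentile of signal was 220 to 238 on the over-expressor arrays and 264 to 275 on the empty vector arrays. Pairs of arrays within a group correlated at 0.931 to 0.977, and none were identical. Only 1 of 11 epidermal and lateral root cap markers (EXPA7, 19.1 to 217.7 signal units over all arrays) and 1 of 8 cortex and endodermis markers had a probeset of their own, and none of the stele or shoot markers did, so the labelled cell type could hardly be checked. In sorted bulk samples, fewer cells of a type and less RNA per cell cannot be told apart. The early auxin-raised genes had higher means with IAA in each vector for all 8 genes measured, with a median log2 change of 1.17 in IAA7mII cells, 1.02 in IAA19mII cells and 3.47 in empty vector cells. Of the 6 tested in the over-expressors, 3 passed the test as higher in IAA7mII cells and 1 in IAA19mII cells (limma, adjusted p under 0.05). Of all tested probesets, 0.0498% were called higher in IAA7mII cells and 0.0249% in IAA19mII cells. Probeset 257769_at, unnamed in the annotation and singled out after its values were seen, read 25589.8 to 28173.6 in IAA7mII mock cells and is listed at exactly 0 on all 3 IAA7mII IAA arrays. Probeset 258399_at, also unnamed and singled out after its values were seen, read 26033.5 to 35135.4 in IAA19mII mock cells. It is listed at exactly 0 on all 3 IAA19mII IAA arrays. No member value is 0.

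**Figure D1:**
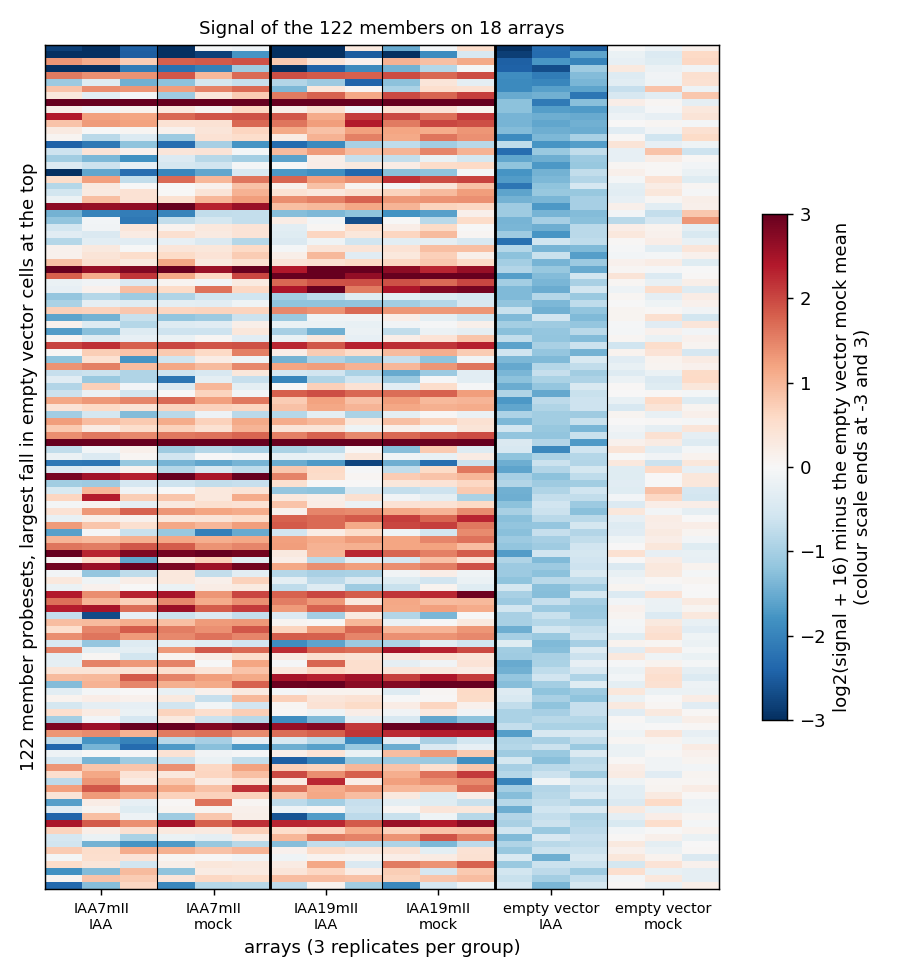
Each row is 1 of the 122 members and each column 1 of the 18 arrays, grouped as IAA7mII, IAA19mII and empty vector, each with IAA left of mock. Colour gives log2(signal + 16) minus that member's mean on the empty vector mock arrays. The empty vector IAA columns are blue because the rule chose them so, while the IAA and mock columns of each over-expressor look much alike and many of their rows are red.

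In empty vector cells the members had a median log2 change of -0.998 with IAA, from -2.59 to -0.80, and their mean mock signals ran from 109 to 5468 with a median of 535. These values chose the members and are given without a test. Just inside the limit on the fall lay 261189_at and 245252_at, at -0.802 and -0.804, and just outside it 267548_at at -0.797 and AT3G07310 at -0.79. Just inside the limit on mock signal lay 257124_at at 109 and AT2G17020 at 109.8, and just outside it AT1G30690 at 99.4 and 263791_at at 90.2. PDC2 entered with a highest IAA signal of 327.7 against a lowest mock signal of 328.5, whereas AT1G68980 stayed out with 128.2 against 127.5. A further 23 probesets had the fall and the mock signal but overlapping arrays, and 64 had the fall and no overlap but a lower mock signal.

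No member passed the test for a response to IAA in either over-expressor. All 122 passed the filter on dim probesets, and none was called in IAA7mII cells by limma at an adjusted p under 0.05, where 0.056% of the 16077 tested probesets were called (0.00622% lower and 0.0498% higher). None was called in IAA19mII cells either, where 0.0311% were called (0.00622% lower and 0.0249% higher). The smallest adjusted p was 0.541 in IAA7mII cells and 0.112 in IAA19mII cells. At an unadjusted p under 0.05, 12 members lay lower and 0 higher with IAA in IAA7mII cells, and 15 lay lower and 2 higher in IAA19mII cells. Of all tested probesets, 5.43% in IAA7mII cells and 6.43% in IAA19mII cells had such a p in either direction. The median standard error of a member's log2 change was 0.28.

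The direction of the values leaned low all the same. The members' median log2 change with IAA was -0.21 in IAA7mII cells, beside -0.03 for all probesets with a mock signal of 100 or more. There 96 of the 122 means were below 0, beside 54.1% of those probesets. In IAA19mII cells the median was -0.20, beside -0.05, and 88 means were below 0, beside 55.9%. Both means were lower with IAA for 73 members, or 59.8%, beside 32.8% of all probesets with that mock signal, both were higher for 11, and the signs differed for 38. The over-expressor arrays took no part in choosing the members, and the 2 responses share no arrays. Whether same-numbered replicates of different groups shared a batch was not tested, so separate arrays need not mean independent responses. Across the 122 members the responses had a Pearson correlation of 0.46 and a Spearman correlation of 0.39, beside 0.15 and 0.14 across the 8914 probesets, where members share arrays and are not independent.

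**Figure D2:**
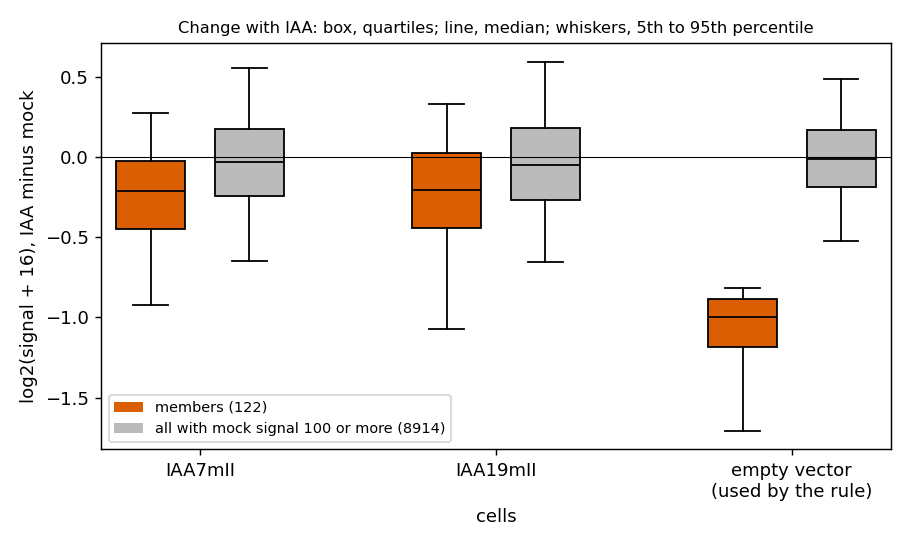
The y axis gives the log2(signal + 16) difference, IAA minus mock, in IAA7mII, IAA19mII and empty vector cells, for the 122 members (orange) and the 8914 probesets with a mock signal of 100 or more (grey). Boxes show quartiles, lines medians and whiskers the 5th to 95th percentile. The member medians are -0.21 and -0.20 in the over-expressors, and -0.998 in the empty vector cells that chose them.

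A fall of 0.8 or more in the means was seen for 9 members in IAA7mII cells and for 11 in IAA19mII cells. Among probesets with a mock signal of 100 or more, 2.75% and 2.61% had one, and among all tested probesets 4.16% and 3.18%. A fall of that size in both was seen for 4 members, or 3.28%, beside 0.28% of the probesets with that mock signal. A rise of that size was seen for 0 members in IAA7mII cells, where 3% of tested probesets had one, and for 1 in IAA19mII cells, where 4.53% had one. That member, named after its values were seen, was 267083_at. All 3 IAA arrays lay below all 3 mock arrays for 14 members in IAA7mII cells, beside 6.05% of tested probesets, and for 20 in IAA19mII cells, beside 5.78%. The opposite order was found for 3 members in IAA7mII cells, beside 4.43%, and for 6 in IAA19mII cells, beside 6.18%. The tested probesets include many with a mean empty vector mock signal under 100, which no member has. The arrays overlapped in both over-expressors for 83 members, lay below mock in both for 3, and lay above mock in both for 1. No member lay below mock in one over-expressor and above it in the other.

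Genes induced by low oxygen supplied the 2 members with the deepest falls in empty vector cells. Plant cells sense oxygen through the degradation of ERF transcription factors, whose stabilisation turns on fermentation and signalling genes. Of 30 loci on the low oxygen list, 14 have a probeset of their own, 6 are members and 4 were among the loci left out. All 14 had lower means with IAA in empty vector cells, which the rule had fixed in advance for the 6 members and the 4 left out. In the over-expressors 0 of the 14 were called, with means below 0 for 11 in IAA7mII cells (median -0.43) and for 14 in IAA19mII cells (median -0.67).

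AT5G66985, of the low oxygen list, had signals of 8.1, 1.5 and 15 with IAA and 3.3, 144.9 and 135.8 with mock in IAA7mII cells. In IAA19mII cells it had 4.5, 2.7 and 190.6 with IAA and 43.4, 143.3 and 225.9 with mock. In empty vector cells it had 5.7, 18.9 and 13.4 with IAA and 152.4, 136.9 and 170.9 with mock. A single array in each over-expressor crossed over: replicate 1 of IAA7mII mock was as low as the IAA arrays, and replicate 3 of IAA19mII IAA was as high as the mock arrays. The log2 changes were -1.72 ± 0.80 in IAA7mII cells and -1.62 ± 0.80 in IAA19mII cells (SE, n = 3 per group), with adjusted p of 0.906 and 0.784 by limma.

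AT3G27220, a kelch repeat gene, had signals of 66.3, 53.9 and 203 with IAA and 107.1, 157.8 and 339.1 with mock in IAA7mII cells. Its IAA19mII cells gave 24.4, 101.2 and 200.2 with IAA and 127.6, 313.1 and 852.2 with mock. Empty vector cells gave 154.5, 229.3 and 389.9 with IAA and 1046.8, 890.7 and 1829 with mock. Replicate 3 was the highest array in every one of these groups, and the IAA and mock arrays overlapped in both over-expressors. Every over-expressor mock array lay below every empty vector mock array. The log2 changes were -0.86 ± 0.61 and -1.77 ± 0.61, with adjusted p of 0.951 in IAA7mII cells and 0.613 in IAA19mII cells.

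CML38, a calmodulin-like protein that responds to low oxygen, had 1352.3, 1988.7 and 1941.2 with IAA and 2087.3, 1822 and 1364.7 with mock in IAA7mII cells. The IAA19mII arrays read 1844.5, 2268.6 and 1627.9 with IAA and 1997.1, 2070.1 and 1772.6 with mock. The empty vector arrays read 515.8, 1632.6 and 1463.2 with IAA and 2533.2, 2849.7 and 2109.9 with mock. The over-expressor groups overlapped fully, and their log2 changes were 0.00 and -0.03 with a standard error of 0.21. Among the others, AT5G10040 changed by -0.47 and -0.75 and PDC2, a pyruvate decarboxylase of ethanol fermentation, by -0.36 and -0.52 in IAA7mII and IAA19mII cells, neither past the test. AT3G03270 (HRU1, a universal stress protein), which was chosen after its values were seen, had 2863.6, 4224.9 and 2689.2 with IAA and 4257.8, 5370 and 4527.7 with mock in IAA19mII cells. All of its IAA arrays lay below its mock arrays there, and its adjusted p was 0.732.

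Without the 6 low oxygen members the remaining 116 had medians of -0.19 in IAA7mII cells and -0.20 in IAA19mII cells. The 6 had medians of -0.42 and -0.65.

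**Figure D3:**
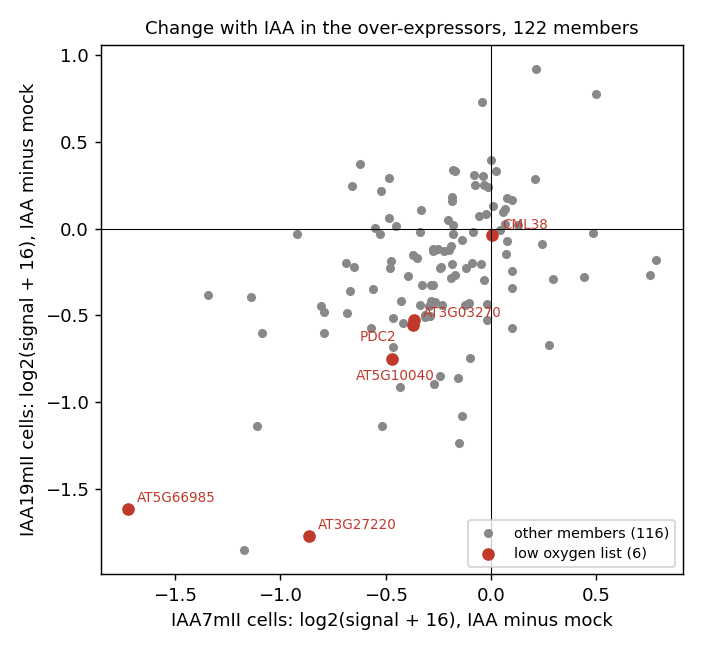
Each point is 1 of the 122 members, with its log2(signal + 16) difference, IAA minus mock, in IAA7mII cells on the x axis and in IAA19mII cells on the y axis. The 6 low oxygen members are red and named. AT5G66985 and AT3G27220 sit at the lower left and CML38 near 0 on both axes, while most other members lie within 0.5 of 0.

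Several members with other roles lay at higher levels in the over-expressors than in empty vector cells. AT3G05400, a sugar transporter of the ERD6-like family, had 1109.7, 969.1 and 960.6 with IAA and 1383.3, 731.2 and 1216.2 with mock in IAA7mII cells. In IAA19mII cells it had 1434.4, 1359 and 1299.7 with IAA and 1456, 1242.8 and 1461.3 with mock. In empty vector cells it had 89.1, 74 and 139.4 with IAA and 278.2, 337 and 521.3 with mock. Its changes were -0.08 ± 0.22 and -0.02 ± 0.22, and every over-expressor array was above every empty vector array. It is the only member among 18 monosaccharide transporter loci, of which 6 were tested and 0 called in either response. Of all tested probesets, 0.056% were called in IAA7mII cells and 0.0311% in IAA19mII cells.

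AT4G16260, of the beta-1,3-glucanase family of pathogenesis related proteins, had 1224.5, 534.7 and 525.6 with IAA and 767.7, 858.2 and 876.5 with mock in IAA7mII cells. Its IAA19mII cells gave 846.2, 499.2 and 994.3 with IAA and 921, 723.7 and 1017.5 with mock. Empty vector cells gave 73.6, 69.6 and 66.9 with IAA and 198, 183.9 and 293.6 with mock. The IAA and mock arrays overlapped in both over-expressors, with changes of -0.24 ± 0.30 and -0.22 ± 0.30. Of 7 tested genes of the pathogenesis related list, 0 were called in either response. The shares over all tested probesets were 0.056% in IAA7mII cells and 0.0311% in IAA19mII cells.

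AT4G33980 (COR28), a cold and clock regulated gene, had 308.9, 247.1 and 175.5 with IAA and 488.7, 362.5 and 315.6 with mock in IAA7mII cells. The IAA19mII arrays read 206.4, 742.7 and 404 with IAA and 394.1, 568.4 and 455.1 with mock. The empty vector arrays read 213.6, 228.6 and 298.6 with IAA and 548.1, 765.7 and 677.6 with mock. The IAA arrays lay below the mock arrays in IAA7mII cells and spread across them in IAA19mII cells, with changes of -0.65 ± 0.35 (adjusted p 0.921) and -0.22 ± 0.35 (adjusted p 0.949). COR27, the related gene of the same list, changed by -0.84 in IAA7mII cells and -0.25 in IAA19mII cells. Of the 3 tested genes of that list, 0 were called in either response. The shares over all tested probesets were 0.056% in IAA7mII cells and 0.0311% in IAA19mII cells.

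AT1G64590, of the short-chain dehydrogenase family, was 1 of the 3 members with IAA arrays below mock arrays in both over-expressors. The others were 258971_at and 264475_s_at, the latter named after its values were seen. AT1G64590 had 924.6, 806.9 and 616.2 with IAA and 1298.9, 1336 and 1409.8 with mock in IAA7mII cells. In IAA19mII cells it had 632.2, 478.6 and 396.5 with IAA and 758.3, 695.3 and 820.8 with mock. In empty vector cells it had 53.6, 97.3 and 78.4 with IAA and 303, 276.3 and 564 with mock. Its changes were -0.79 ± 0.23 (adjusted p 0.64) and -0.60 ± 0.23 (adjusted p 0.71), and its level with IAA in either over-expressor was above its mean level in empty vector mock cells.

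ROXY1, a glutaredoxin, had the smallest adjusted p of the members in IAA7mII cells. It had 553.6, 151.3 and 151.2 with IAA and 492.5, 733 and 665.5 with mock in IAA7mII cells, so replicate 1 with IAA stood apart from the other IAA arrays. Its IAA19mII cells gave 937.7, 672.3 and 638.4 with IAA and 1127.3, 1009.8 and 799.7 with mock. Its change in IAA7mII cells was -1.34 ± 0.35 (adjusted p 0.541) with all arrays and -1.93 ± 0.28 without replicate 1 of IAA7mII IAA (adjusted p 0.00161). Its adjusted p ran from 0.00161 to 0.999 over the settings tried. The cause was not tested.

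Probeset 258487_at, unnamed and singled out after its values were seen, had the smallest adjusted p in IAA19mII cells. It had 439.1, 999.9 and 1428.7 with IAA and 2009.6, 2979.3 and 5191.8 with mock in IAA19mII cells. In IAA7mII cells it had 509.4, 501.6 and 1254.5 with IAA and 1140.2, 1313.3 and 2554.5 with mock. Every IAA array lay below every mock array in IAA19mII cells, while the arrays overlapped in IAA7mII cells. The changes were -1.85 ± 0.40 (adjusted p 0.112) and -1.17 ± 0.40 (adjusted p 0.742). Over the settings tried its adjusted p ran from 6.6e-05 to 0.695 in IAA19mII cells and from 0.0208 to 0.999 in IAA7mII cells.

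Among the other genes with the deepest empty vector falls, AT5G05600, an oxygenase that inactivates jasmonate, had 1294.5, 1082.3 and 1438.4 with IAA and 1175.8, 1124.7 and 1641.5 with mock in IAA7mII cells. For IAA19mII it read 1685.6, 1959.1 and 2115.5 with IAA and 1986.8, 2500.3 and 2615.6 with mock, against 736.2, 507.7 and 764.1 with IAA and 1779.8, 1743.4 and 1617.4 with mock in empty vector cells. The IAA and mock arrays overlapped in both over-expressors, with changes of -0.04 ± 0.20 and -0.30 ± 0.20, while in empty vector cells the difference was -1.36. AT1G10140 had -0.37 ± 0.24 in IAA7mII cells and -0.15 ± 0.24 in IAA19mII cells, AT3G06210 had 0.24 ± 0.30 and -0.09 ± 0.30, and AT5G44730, of the haloacid dehalogenase-like hydrolases, had -0.69 ± 0.45 and -0.20 ± 0.45. None of these passed the test, and the IAA and mock arrays overlapped for each gene in both over-expressors.

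The 4 named genes with the highest mean of both responses were AT1G56060, AT5G64870, a flotillin, AT2G42140 and BGLU15, a beta-glucosidase. AT1G56060 had 245.6, 221.4 and 275.3 with IAA and 178.5, 153.9 and 92.7 with mock in IAA19mII cells, a difference of 0.78 ± 0.39 (adjusted p 0.784), and 0.50 ± 0.39 in IAA7mII cells. AT5G64870 had -0.04 in IAA7mII cells and 0.73 in IAA19mII cells, AT2G42140 had 0.76 and -0.27, and BGLU15 had -0.0024 and 0.39, so AT1G56060 alone of the 4 had both means higher with IAA. None of the 4 passed the test in either response. At the other end, AT3G09960 had -1.09 and -0.60 in IAA7mII and IAA19mII cells, neither past the test.

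The response did not differ detectably between the over-expressors for any member. The difference of responses, IAA19mII minus IAA7mII, gave 0 calls by limma among the members, where 0.0187% of tested probesets were called (0.0124% lower and 0.00622% higher), with 5 members at an unadjusted p under 0.05, beside 4.28% of tested probesets, and a smallest adjusted p of 0.999. Its median standard error was 0.39 on the log2 scale.

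**Figure D4:**
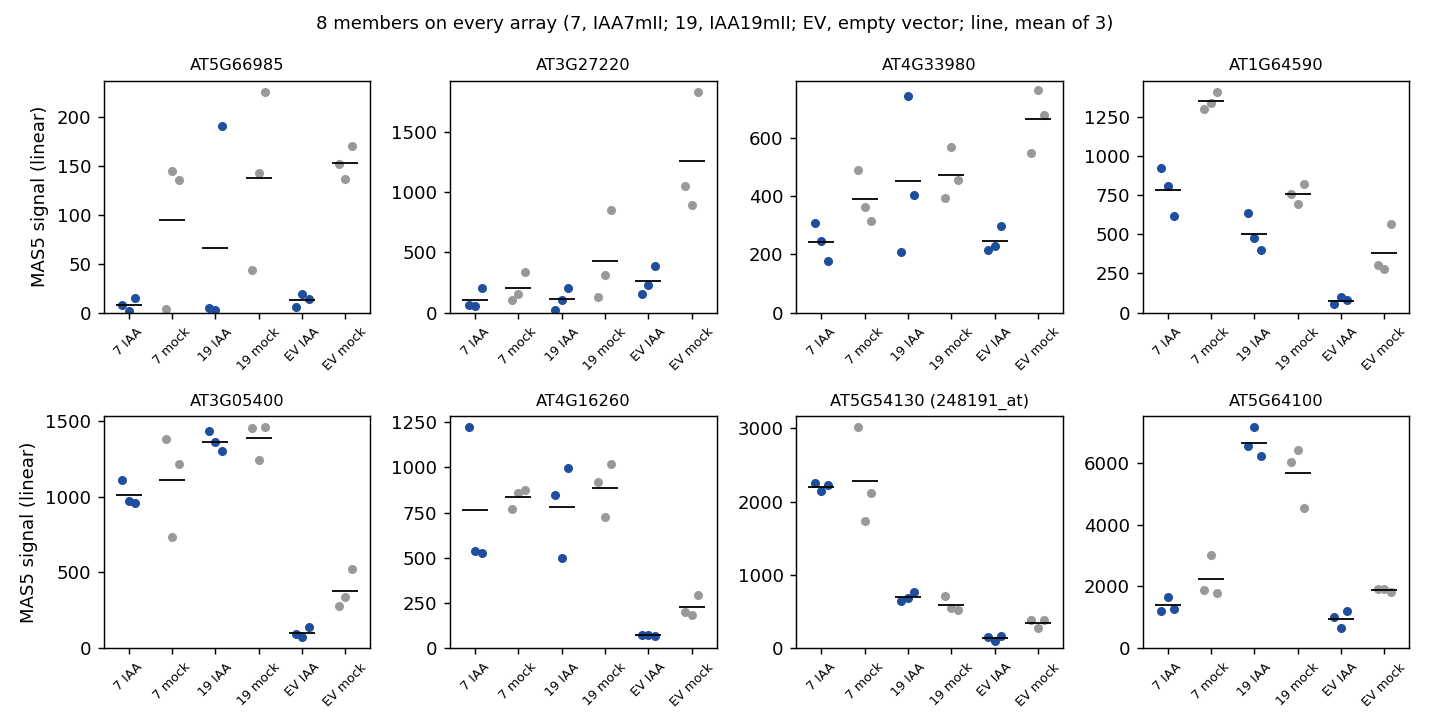
Linear MAS5 signal of 8 members on every array, with IAA7mII (7), IAA19mII (19) and empty vector (EV) cells from left to right and IAA (blue) left of mock (grey) in each. Lines are means of 3 arrays. AT5G66985 and AT3G27220 are low in most IAA arrays, AT3G05400 and AT4G16260 are flat and higher in both over-expressors, and AT5G54130 and AT5G64100 differ between IAA7mII and IAA19mII cells.

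The members stood at higher levels in the over-expressors than in empty vector cells, even though the rule asked for a high signal in empty vector mock cells. These comparisons use the arrays that chose the members, so they are described without a test. With mock, the median log2 difference from empty vector cells was 0.38 in IAA7mII cells and 0.47 in IAA19mII cells, beside -0.20 and -0.24 over all probesets with a mock signal of 100 or more. All 3 IAA7mII mock arrays lay above all 3 empty vector mock arrays for 55 members, beside 15.1% of those probesets, and below them for 22, beside 29.8%. All 3 IAA19mII mock arrays lay above for 61 members, beside 15.6%, and below for 13, beside 32.6%. Both over-expressors lay above for 48 members, beside 802 of those 8914 probesets, and below for 10, beside 1781 of them.

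With IAA the gap was wider, as the rule makes the empty vector IAA signals low. The median difference was 1.11 in IAA7mII cells and 1.44 in IAA19mII cells, beside -0.23 and -0.30 over all probesets with that mock signal. All IAA7mII arrays lay above all empty vector arrays for 81 members, beside 16.3%, and all IAA19mII arrays for 86, beside 15.8%, with 77 members above in both, beside 10.2%. They lay below the empty vector arrays for 2 members in IAA7mII cells, beside 28.3%, and for 2 in IAA19mII cells, beside 33.6%.

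The widest gaps by the mean of both mock differences, picked out after their values were seen, were those of the unnamed 260637_at, at 3.35 in IAA7mII cells and 4.37 in IAA19mII cells, and 262454_at, at 3.25 and 3.03. Of members that match 1 gene, the 3 widest were those of AT5G43590, PAP20 and AT3G22800. AT5G43590, a patatin-like lipase, had 4584.5, 3902.2 and 4368.4 in IAA7mII mock cells, 4728.7, 4175.6 and 4164.3 in IAA19mII mock cells, and 539.7, 549.7 and 565.8 in empty vector mock cells. PAP20, a purple acid phosphatase, had 1474.4, 1129 and 1486.7 in IAA7mII mock cells, 1205, 916.8 and 1150.8 in IAA19mII mock cells, and 181.2, 171.3 and 172.1 in empty vector mock cells. AT3G22800, a leucine-rich repeat extensin of the cell wall, had 943.5, 589.7 and 779 in IAA7mII mock cells, 1029.2, 893.9 and 1113 in IAA19mII mock cells, and 111, 233.9 and 150.1 in empty vector mock cells. In each of the 3 the over-expressor arrays lay above every empty vector array.

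The low oxygen members went the other way. All 6 had lower mean mock levels in both over-expressors than in empty vector cells. Their median log2 differences were -0.89 in IAA7mII cells and -0.35 in IAA19mII cells, whereas the other 116 had medians of 0.42 and 0.52. Lower levels were also the more common direction over all 8914 probesets with the mock signal that the rule asked for. Of those, 63.3% were lower in IAA7mII cells and 65.6% in IAA19mII cells, with medians of -0.20 and -0.24. A lower mock level was therefore not particular to the low oxygen members. The 10 members with all mock arrays of both over-expressors below the empty vector, listed after their values were seen, were AT3G27220, CML38, AT1G74940, AT2G46550, AT5G48110, AT5G58510, AT2G15960 and the unnamed 265478_at, 249205_at and 246785_at. For PDC2 the mean mock signals were 183 ± 13.5 in IAA7mII cells, 203 ± 119 in IAA19mII cells and 551 ± 193 in empty vector cells (SD, n = 3 each). Whether the plasmid backbone has a part in these levels was not tested.

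The over-expressors share a plasmid backbone, and their arrays were not used by the rule, so member levels were tested between them. With mock, 29 members differed between IAA19mII and IAA7mII cells by limma, 19 higher and 10 lower in IAA19mII cells, where 3.78% of tested probesets were called (2.83% higher and 0.952% lower). With IAA, 23 differed, 18 higher and 5 lower, where 4.75% were called (3.34% higher and 1.41% lower). Among probesets with a mock signal of 100 or more the shares were 5.31% and 6.63%. The median log2 difference over the members was 0.19 under each treatment, beside -0.07 and -0.08 over those probesets. In all, 19 members were called under both treatments, with the same sign each time, and 33 under either, of which 10 match 1 gene. The mock count was 15 without replicate 1 of IAA7mII mock, 18 without its replicate 2, 17 without its replicate 3 and 15 without replicate 2 of IAA19mII mock.

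AT5G64100, a class III peroxidase, had 6061.2, 6442.2 and 4544.8 in IAA19mII mock cells and 1894, 3028.8 and 1786.3 in IAA7mII mock cells. With IAA it had 6560.6, 7202.5 and 6235.7 in IAA19mII cells and 1207.3, 1659.3 and 1279.2 in IAA7mII cells. Empty vector cells gave 995.2, 640.7 and 1187.1 with IAA and 1917.1, 1933.3 and 1811.9 with mock. The IAA19mII arrays lay above all others, by 1.36 ± 0.20 on the log2 scale over IAA7mII with mock (adjusted p 0.000106) and by 2.27 ± 0.20 with IAA (adjusted p 1.02e-07). Its IAA arrays lay below its mock arrays in IAA7mII cells, at -0.66 ± 0.20 (adjusted p 0.705), and its change in IAA19mII cells was 0.24 ± 0.20.

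AT5G54130 differed in the other direction on both of its probesets. On 248191_at it had 703.7, 544.7 and 523.1 in IAA19mII mock cells and 3015.8, 1727.3 and 2112.5 in IAA7mII mock cells. With IAA it had 645.3, 676.4 and 767.3 in IAA19mII cells and 2254.8, 2137.2 and 2222.2 in IAA7mII cells. The empty vector arrays read 152.8, 90.6 and 159.6 with IAA and 375.8, 268.8 and 376.7 with mock. The log2 differences, IAA19mII minus IAA7mII, were -1.90 ± 0.22 with mock (adjusted p 5.14e-06) and -1.64 ± 0.22 with IAA (adjusted p 2.93e-05). On 248190_at they were -2.04 ± 0.29 and -1.86 ± 0.29. These calls and those of AT5G64100 held in all 24 other settings.

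Other named members higher in IAA19mII than in IAA7mII mock cells were AT5G05600 by 0.85 ± 0.20 (adjusted p 0.0129), AT5G57150, a bHLH transcription factor, by 1.15 ± 0.30 (adjusted p 0.0319), and AT1G70880, of the Bet v 1 family, by 1.42 ± 0.39 (adjusted p 0.0432). AT5G57150 was also called with IAA, at 1.05 ± 0.30, and ROXY1 was called with IAA alone, at 1.58 ± 0.35 (adjusted p 0.00787). Lower in IAA19mII mock cells were AT1G64590 by -0.82 ± 0.23 (adjusted p 0.0447), BGLU15 by -1.01 ± 0.26 (adjusted p 0.0255) and AT2G28680, a cupin, by -0.79 ± 0.21 (adjusted p 0.0368). Of the gene lists that hold a member, the pathogenesis related list had 4 of 7 tested genes called higher in IAA19mII cells under each treatment. Of all tested probesets, 2.83% were called higher with mock and 3.34% with IAA. None of the called genes of that list is a member, but OSM34 and AT1G02360 of that list met the rule and were among the loci left out. With mock, 1 of 14 low oxygen genes was higher and 1 of 3 clock and cold genes lower, neither a member, and no monosaccharide transporter was called. Of all tested probesets, 0.952% were called lower with mock. Of the 24 other settings, the mock call was lost in 12 for AT1G64590, in 10 for AT1G70880, in 8 for BGLU15, in 8 for AT2G28680, in 6 for AT5G05600 and in 6 for AT5G57150. The call with IAA was lost in 16 for AT5G57150 and in 3 for ROXY1.

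Among members without a gene name, 257774_at had the smallest adjusted p under both treatments. It had 7798.3, 6645.3 and 8234.6 in IAA19mII mock cells and 2164.5, 1946.6 and 2485 in IAA7mII mock cells. With IAA it had 6787.7, 7685.7 and 7882 in IAA19mII cells and 1788.9, 1908.2 and 1513.6 in IAA7mII cells. The groups were far apart, by 1.78 ± 0.16 with mock (adjusted p 1.58e-07) and 2.09 ± 0.16 with IAA (adjusted p 8.75e-09). The largest difference with IAA was that of 248676_at, 2.79 ± 0.46, and 259129_at was lower in IAA19mII cells, at -1.14 ± 0.23 with mock and -1.58 ± 0.23 with IAA.

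**Figure D5:**
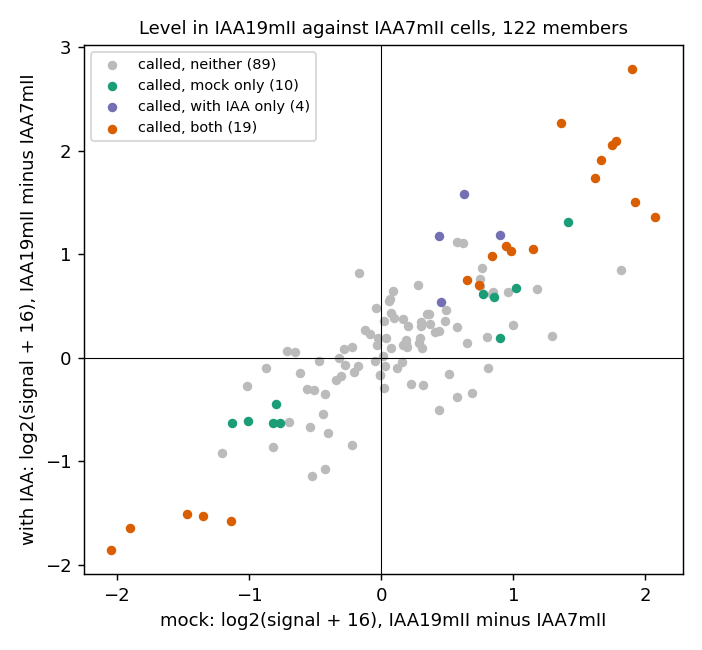
Each point is 1 of the 122 members, with its log2(signal + 16) difference, IAA19mII minus IAA7mII, with mock on the x axis and with IAA on the y axis. Colours mark members called by limma under both treatments (19), with mock only (10), with IAA only (4) or under neither (89). The called members lie along the diagonal, more of them at the upper right than at the lower left.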

How the data were processed

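Expression was measured on 18 ATH1 arrays, 3 in each of 6 groups. The authors deposited 1 MAS5 intensity for each probeset, on a linear scale. MAS5 comes from the submitters' processing notes, without a version. The deposited arrays have nearly equal trimmed means (2% trim), and were not scaled further. The 18 scanner setting files are identical and were not used.

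The members and gene lists were chosen with earlier results of these data known, so no list was tested as a set. Genes were named from the platform's probe table, updated through a TAIR10.1 gene table used for names only: 13513 probesets carry 1 gene, 503 several and 8730 none, and 13436 of the first matched. Where AT5G54130 has 2 probesets both are given.

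The test was limma 3.58.1 (R 4.3.3) on log2(signal + 16), with 1 mean per group (empirical Bayes with an intensity trend, two-sided), over the 12 over-expressor arrays, which the rule had not used. A probeset was tested (16077 were) when 3 or more of the 12 arrays read it above the 40th percentile of the array. Benjamini-Hochberg adjustment was made over all of them within each of 5 comparisons, and a call is an adjusted p under 0.05. Folds on this scale understate changes of dim probesets. The number of arrays limits the precision. The fit was tested on simulated data.

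Named were the 15 genes with the largest fall in empty vector cells, members called in any comparison, up to 4 members of each list, the 4 genes with the lowest and the 4 with the highest mean over-expressor response, and probesets beside each limit of the rule. Other names are marked as chosen after their values were seen, except COR27 and EXPA7, which are non-members from the gene lists. Promoter and protein sequences were not used here.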

Additional observations from a re-analysis of the deposited data

How the results depend on the processing

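Of 243 recomputed summary values, 219 stayed within the spread between replicates or within 1.5 times the count. Within that spread the median difference of responses, IAA19mII minus IAA7mII, changed sign. It was 0.04 with all arrays and ran from -0.02 to 0.10 with an array left out. The 24 that moved are these. In the responses to IAA, 1 member was called in IAA7mII cells and 1 in IAA19mII cells with the replicate number as a block (258487_at in both), 1 in IAA19mII cells with array weights (258487_at), and 0 to 1 in each when an array was left out: ROXY1 in IAA7mII cells without replicate 1 of IAA7mII IAA, and 258487_at in IAA19mII cells without replicate 3 of IAA7mII IAA. Same-numbered IAA and mock replicates deviated together with correlations of -0.02 to 0.11 in the over-expressors and -0.05 to 0.31 in empty vector cells. Whether the replicate number marks a shared batch was not tested. The block gave no other response call among the members. Over all tested probesets it gave 3 lower and 11 higher calls in IAA7mII cells, against 1 and 8 without it. In IAA19mII cells it gave 5 lower and 14 higher, against 1 and 4. The median IAA7mII response was -0.35 with a member fall of 1.2 or more. Calls between the over-expressors with mock numbered 10 without the intensity trend, 13 unmoderated, 9 with a fall of 1.2 or more, 18 with a mock signal of 300 or more, and 15 to 33 with an array left out, against 29. With IAA they numbered 12, 12, 6 and 13 under the same 4 settings and 18 to 23 with an array left out, against 23. The median difference, IAA19mII minus IAA7mII, was 0.49 with mock and 0.44 with IAA for a fall of 1.2 or more, and 0.10 with IAA on median-centred arrays. The empty vector median was -0.85 with a pseudocount of 64, -1.11 on median-centred arrays, and -1.09 to -0.94 with an array left out. With an array left out the median response ran from -0.27 to -0.15 in IAA7mII cells and from -0.26 to -0.13 in IAA19mII cells. Of 52 called member differences, 17 held in all 24 settings and 35 were lost in at least 1. The causes were not tested. The medians without the low oxygen members or over single-gene members were alternatives chosen after seeing the data.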
